A study of Sus scrofa with 18 samples.

Results

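The genes examined were 9 transcription factor genes that specify or mark interneurons of the ventral forebrain, DLX1, DLX2, DLX5, DLX6, LHX6, LHX8, NKX2-1, GSX2 and SP8. They were chosen by name from the table of counts per gene, in which 9 of 9 were present among 31908 genes, and 9 of 9 also passed the filter on low counts that kept 16325 genes for testing. Whole brains of domestic pig fetuses were profiled by RNA-seq at GD45, GD60 and GD90 (GD for gestation day), with 3 female and 3 male fetuses on each day, 18 libraries in all. The dams were Landrace × Large White gilts inseminated from the LR-M6 line, no fetus received any treatment, and no brain region was dissected apart, so that each value is an average over the whole organ. Fetuses of 1 day that carried the same litter size in the labels were taken as littermates, which gave 3 pairs of 1 female and 1 male on each day, so the 6 fetuses of a day came from 3 litters.

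Most cortical and striatal neurons that use GABA as transmitter are born below the cortex, in the ganglionic eminences of the subpallium, and many of them then migrate tangentially into the cortex. GSX2 acts in progenitors of the lateral ganglionic eminence and NKX2-1 in those of the medial eminence and preoptic area. The distal-less homeobox genes DLX1 and DLX2 act as these progenitors leave the cell cycle, and DLX5 and DLX6 follow in more mature cells. LHX6, a target of NKX2-1, stays on in migrating and maturing interneurons of the medial eminence, LHX8 is needed for cholinergic neurons of the basal forebrain, and SP8 marks cells of the dorsal lateral and caudal eminences. Several of these genes are also used elsewhere, NKX2-1 in hypothalamus, thyroid and lung and the DLX genes in the face and skeleton.

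Totals ranged from 15118843 to 19729783 counts per library, with a median of 16413097. Levels are given as CPM, counts scaled to a common library size that was adjusted by TMM (trimmed mean of M values), and as CPM per kilobase of annotated gene length (FPKM) where different genes are compared. Marker genes of neurons summed to between 6212 and 10670 CPM in every library, which matched the label of brain. Marker genes of hindbrain and spinal cord varied more, from 10.0 to 130 summed CPM at GD45, 1.54 to 25.8 at GD60 and 2.05 to 28.7 at GD90, and the part of this variation in the results below was not tested. The library male GD45 replicate 17 stood apart, with a TMM factor of 0.849 where the other libraries had 0.943 to 1.07, and it is named where a value rests on it. The median SD of log2 CPM over genes was 0.375 in the group male GD45 and 0.15 to 0.228 in the other groups. All 18 libraries shared 1 fit, so leaving out a library can also move comparisons between other groups.

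DLX1 had the highest level per length of the 9 genes at GD45, with 23.6 ± 2.29 FPKM (SD, n = 6). DLX2 followed at 21.0 ± 5.05 FPKM and DLX5 at 19.3 ± 1.87, and the ranges of these 3 genes over the 6 brains overlapped. LHX6 at 10.9 ± 1.31 and NKX2-1 at 9.35 ± 0.925 FPKM overlapped with each other and lay below the 3 DLX genes, apart from the DLX2 level of 11.9 FPKM in male GD45 replicate 17. GSX2 stood at 5.95 ± 0.927 FPKM, below NKX2-1 in every brain. The lowest levels were those of DLX6 at 4.00, SP8 at 2.71 and LHX8 at 2.54 FPKM. Between GD45 and GD90 the order of the means changed, with LHX6 moving from rank 4 to rank 1 and GSX2 from rank 6 to rank 8.

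**Figure D1:**
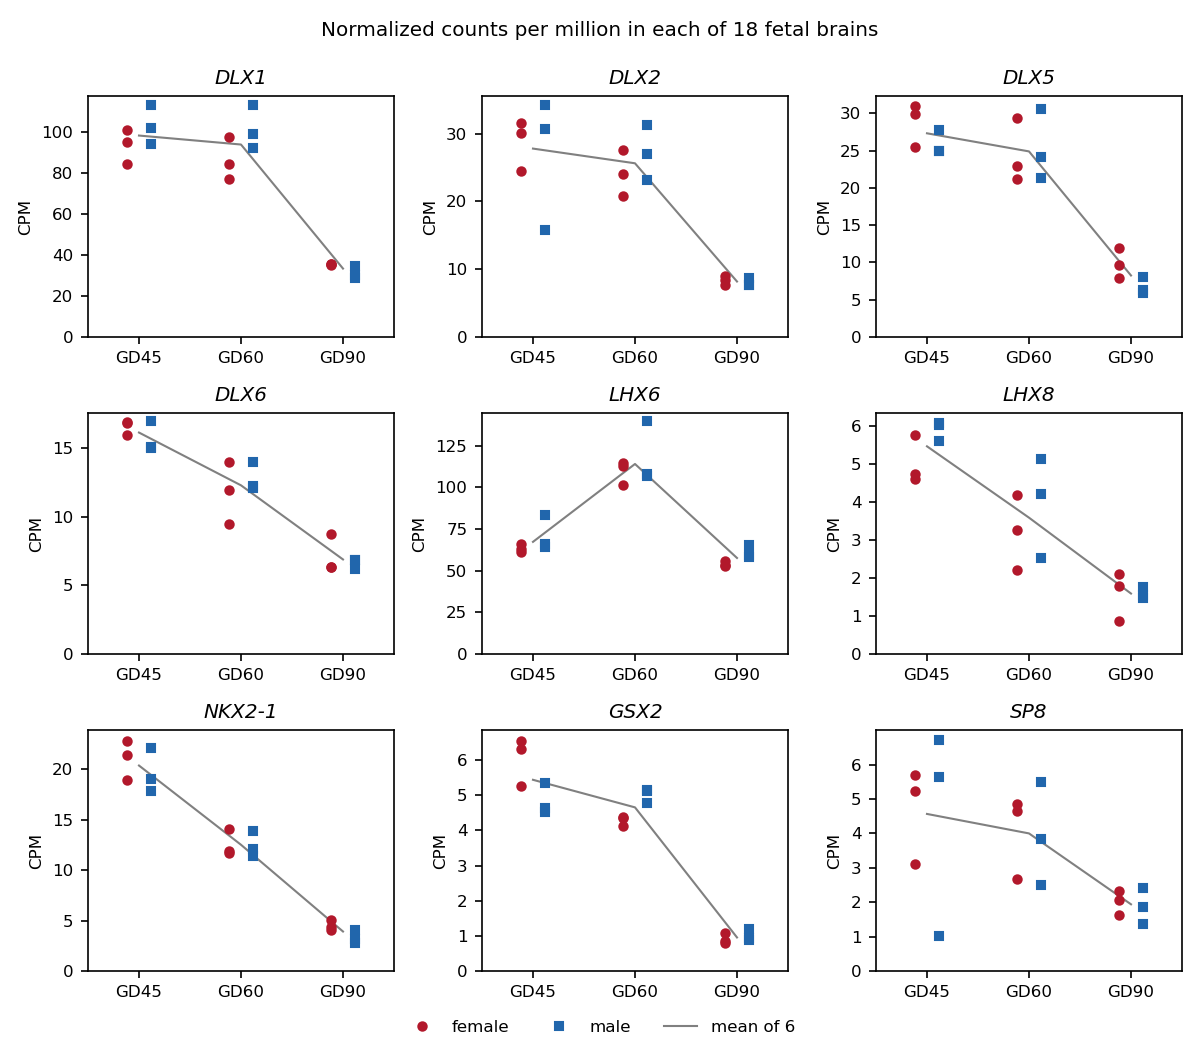
Normalized counts (CPM, vertical axis, starting at 0) of each gene in each fetal brain by gestation day, with females as red circles, males as blue squares and the mean of 6 brains as a grey line. LHX6 peaks at GD60 with 114 CPM on average, while the 9 genes have their lowest mean at GD90.

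The summed level of the 9 genes was 272 ± 15.2 CPM at GD45, 295 ± 33.03 at GD60 and 123 ± 2.06 at GD90 (SD, n = 6 each). At GD90 the sum lay between 119 and 126 CPM in the 6 brains, below the lowest sum at GD60, 256 CPM. DLX1 and LHX6 made up most of this sum, with means of 93.7 and 114 CPM at GD60, so it says little about the other genes. The genes are described 1 by 1 below.

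From GD45 to GD60, with both sexes together, LHX6 rose while NKX2-1 and DLX6 fell. These 3 of 9 genes passed an adjusted p of 0.05 (edgeR quasi-likelihood test with Benjamini-Hochberg adjustment over all genes tested), where 16.7% of all genes tested did so, 9.35% upward and 7.37% downward. They were also the 3 genes whose 6 brains of GD60 lay entirely above (LHX6, as for 4.62% of all genes tested) or below (NKX2-1 and DLX6, as for 3.84%) the 6 of GD45. Within females 2 of 9 passed (7.22% of all genes tested) and within males 2 of 9 (5.61%), LHX6 and NKX2-1 in both sexes. DLX6 passed as well in females without male GD45 replicate 17 (adjusted p = 0.0431, edgeR) or female GD60 replicate 15 (adjusted p = 0.0348). A male library is no part of the female comparison and acts on it only through the shared fit. The shares of all genes within a sex moved with single libraries. The 1178 genes called in females became 531 to 661 without female GD45 replicate 12, 13 or 18 or female GD60 replicate 3 or 5, and 2329 without male GD45 replicate 17. The 916 called in males became 476 and 565 without male GD60 replicate 6 and 16, and 1550 without male GD45 replicate 17. The median log2 fold change of the 9 genes was -0.20 and that of all genes -0.01. Because all values come from bulk tissue, fewer cells of a type and less RNA per cell cannot be told apart in any comparison here.

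LHX6 (ENSSSCG00000005530, chr1:262295317-262322530 on Sscrofa11.1, minus strand) encodes a LIM homeodomain factor. In female brains it measured 65.8, 63.0 and 60.9 CPM at GD45, 102, 113 and 115 at GD60, and 53.4, 55.9 and 52.9 at GD90. In male brains it measured 66.1, 83.2 and 64.4 CPM at GD45, 107, 108 and 140 at GD60, and 58.4, 59.5 and 65.2 at GD90. All 6 brains of GD60 lay above the 12 others. The rise from GD45 to GD60 was 1.70-fold with both sexes together (log2 fold change 0.76, SE 0.089, adjusted p = 2.05e-05, edgeR). It was 1.73-fold in females (adjusted p = 0.00121) and 1.66-fold in males (adjusted p = 0.00221). In males the call was lost when the 6 male libraries of these days were fitted alone (adjusted p = 0.179, edgeR), a fit in which 0 genes of all tested passed. The exon table held only 12.9% of the reads counted on the gene LHX6, and in it the male rise did not pass either (adjusted p = 0.188).

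NKX2-1 (ENSSSCG00000001945, chr7:63487807-63491575, plus strand) moved the opposite way over the same period. Its levels in female brains were 22.9, 21.4 and 19.0 CPM at GD45, 11.7, 14.1 and 11.9 at GD60, and 5.03, 4.38 and 4.10 at GD90. In male brains they were 19.0, 17.9 and 22.2 CPM at GD45, 11.4, 12.1 and 13.9 at GD60, and 4.05, 3.14 and 2.76 at GD90. The 3 days did not overlap, and the mean at GD60 was 61.4% and that at GD90 19.2% of the mean at GD45. The fall to GD60 was 1.63-fold with both sexes together (log2 fold change -0.70, SE 0.113, adjusted p = 0.000407, edgeR), and the fall from GD60 to GD90 3.23-fold (log2 fold change -1.69, SE 0.121, adjusted p = 1.91e-08). Within each sex the first fall also passed (adjusted p = 0.00948 in females and 0.0210 in males). It no longer did so in females without female GD60 replicate 3 (adjusted p = 0.0536, edgeR) and in males without male GD60 replicate 4 or replicate 6 (adjusted p = 0.0799 and 0.0888).

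NKX2-1 acts mainly in progenitors and LHX6 in the cells they give rise to, and the ratio of their levels per length was followed. The ratio of LHX6 to NKX2-1 was between 1.02 and 1.65 at GD45, between 2.83 and 3.57 at GD60 and between 3.75 and 8.38 at GD90, with means of 1.18, 3.23 and 5.51. The days did not overlap. The shift on the log2 scale was 1.46 in the first period and 0.72 in the second, each with an exact two-sided permutation p of 0.00216, the smallest that 6 brains against 6 can give, and an adjusted p of 0.00577 over 8 such tests. The pair was chosen after the levels were seen. In the first period all 6 brains of GD60 lay above those of GD45 for LHX6 and below them for NKX2-1. That fixed the p of the ratio at its smallest value, so it adds no support to the 2 single changes. These tests take the 6 brains of a day as independent, although they came from 3 litters.

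LHX8 (ENSSSCG00000003778, chr6:138074855-138102301, minus strand), the LIM homeodomain relative that shares the medial eminence with LHX6, was near the lower end of the levels. It ranged from 4.60 to 6.06 CPM at GD45 (median 5.68), from 2.21 to 5.12 at GD60 (median 3.72) and from 0.860 to 2.10 at GD90 (median 1.66), with as few as 13 counts in a library. Its log2 fold change from GD45 to GD60 was -0.61 (SE 0.214) with an adjusted p of 0.0608, just outside the threshold, and the likelihood ratio test of edgeR and the Wald test of DESeq2 placed it inside (adjusted p = 0.0320 and 0.0255). The ratio of LHX6 to LHX8 per length rose from a mean of 4.31 at GD45 to 11.8 at GD60 without overlap of the days (exact permutation p = 0.00216, adjusted p = 0.00577). The lowest LHX6 with the highest LHX8 level of GD60 already gave a higher ratio than the highest LHX6 with the lowest LHX8 level of GD45. That fixed the p at its smallest value, so it adds no support to a change of LHX8. From GD60 to GD90 the ratio measured 11.8 and 13.6 and the days overlapped (exact permutation p = 0.452, adjusted p = 0.517). Both tests take brains of the same litter as independent.

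**Figure D2:**
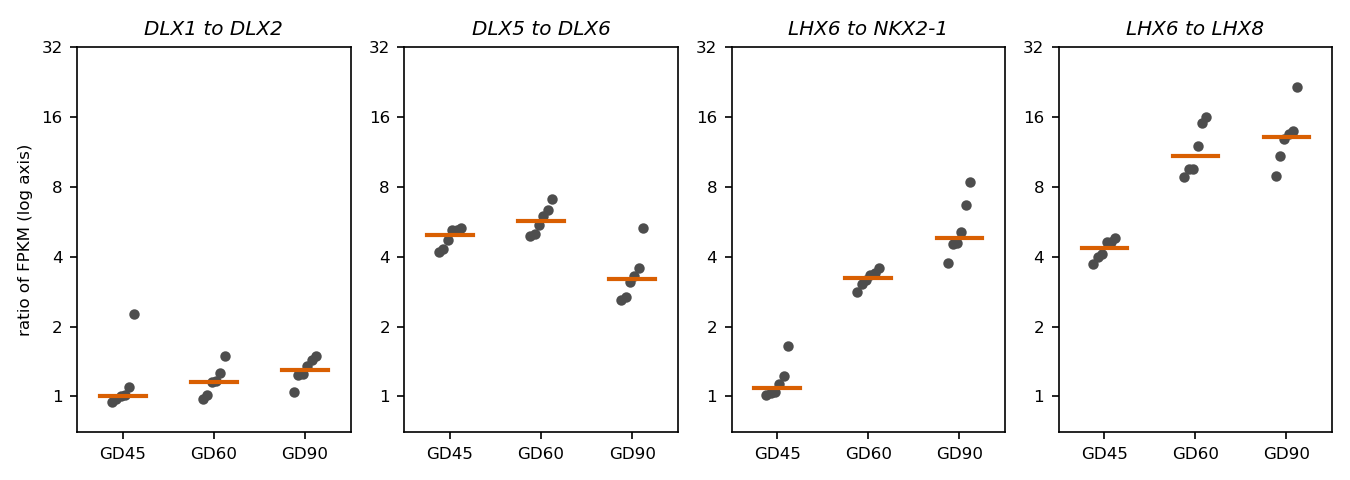
Ratio of the levels per length (FPKM) of 4 pairs of genes in each brain, on a log axis, by gestation day, with the median of 6 brains as an orange bar. The ratio of LHX6 to NKX2-1 is between 1.02 and 1.65 at GD45 and between 3.75 and 8.38 at GD90, whereas that of DLX1 to DLX2 stays between 0.949 and 1.49 outside male GD45 replicate 17.

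From GD60 to GD90 every one of the 9 genes fell. With both sexes together 9 of 9 passed, all downward, where 42.4% of all genes tested passed in either direction and 20.9% downward, and the 6 brains of GD90 lay below the 6 of GD60 for 9 of 9, as for 11.2% of all genes tested. The log2 fold changes ran from -2.28 for GSX2 to -0.84 for DLX6, with a median of -1.49 where the median of all genes was -0.01. Within females 8 of 9 passed, all downward, where 27.1% of all genes tested passed and 13.4% downward. Within males 8 of 9 passed, also downward, where 34.5% passed and 16% downward. SP8 was in both sexes the gene that did not pass (adjusted p = 0.140 in females and 0.105 in males, edgeR), and the call of LHX8 in females was lost without female GD60 replicate 5 or 15 or female GD90 replicate 9 (adjusted p = 0.0636 to 0.126).

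GSX2 (ENSSSCG00000008840, chr8:40881751-40883371, plus strand), the marker of early lateral eminence progenitors, showed the greatest fall of the 9. Female brains had 5.25, 6.33 and 6.56 CPM at GD45, 4.37, 4.14 and 4.39 at GD60, and 1.08, 0.795 and 0.860 at GD90. Male brains had 4.64, 4.51 and 5.36 CPM at GD45, 4.79, 5.14 and 5.12 at GD60, and 0.881, 0.924 and 1.18 at GD90. Levels at GD45 and GD60 overlapped, and all 6 brains of GD90 were below both. The fall was 4.84-fold (log2 fold change -2.28, SE 0.148, adjusted p = 6.55e-09, edgeR), from 66 to 86 counts per library at GD60 to 12 to 18 at GD90.

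DLX1 (ENSSSCG00000015953, chr15:78185790-78191297, plus strand) and DLX2 (ENSSSCG00000015954, chr15:78201892-78204157, minus strand) lie tail to tail, 10594 bases apart. DLX1 measured 94.8, 101 and 84.3 CPM in female and 94.1, 102 and 113 CPM in male brains of GD45. At GD60 it measured 76.8, 84.3 and 97.5 CPM in females and 98.6, 92.2 and 113 in males, and at GD90 35.1, 35.7 and 35.4 in females and 28.7, 34.7 and 30.2 in males. GD45 and GD60 overlapped and GD90 stood at 33.9% of the mean of GD45. The fall from GD60 to GD90 was 2.81-fold (log2 fold change -1.49, SE 0.089, adjusted p = 2.61e-09, edgeR). DLX2 ranged from 15.8 to 34.2 CPM at GD45 (median 30.4), from 20.8 to 31.2 at GD60 (median 25.5) and from 7.62 to 9.05 at GD90 (median 8.02). It fell 3.12-fold from GD60 to GD90 (log2 fold change -1.64, SE 0.161, adjusted p = 5.55e-07). The ratio of DLX1 to DLX2 per length had means of 1.22, 1.18 and 1.30 at the 3 days, and neither step passed (exact permutation p = 0.948 and 0.221, adjusted p = 0.948 and 0.294). The mean at GD45 rests on male GD45 replicate 17, whose ratio was 2.27. The 5 other brains of GD45 had 0.949 to 1.09, with a mean of 1.01 ± 0.0548 (SD, n = 5), and without that library the log2 shift to GD60 was 0.21 (exact permutation p = 0.0476, adjusted p = 0.0635).

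DLX5 (ENSSSCG00000038838, chr9:76639561-76643884, minus strand) and DLX6 (ENSSSCG00000033314, chr9:76623661-76631339, plus strand) form the second such pair, 8221 bases apart. DLX5 measured 31.0, 29.9 and 25.5 CPM in female and 24.9, 24.9 and 27.8 CPM in male brains of GD45. At GD60 it measured 21.1, 22.9 and 29.4 CPM in females and 24.1, 21.3 and 30.6 in males, and at GD90 11.9, 7.89 and 9.59 in females and 7.99, 5.85 and 6.24 in males. GD90 lay below the other days without overlap, and the fall from GD60 was 3.07-fold (log2 fold change -1.62, SE 0.135, adjusted p = 9.41e-08, edgeR). DLX6 ranged from 15.0 to 17.0 CPM at GD45 (median 16.4), from 9.46 to 14.02 at GD60 (median 12.2) and from 6.22 to 8.73 at GD90 (median 6.59).

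DLX6 was the DLX gene called in both periods and the one with the smallest fall after GD60. Its change from GD45 to GD60 was -0.39 on the log2 scale (SE 0.115, adjusted p = 0.0265, edgeR), and that from GD60 to GD90 was -0.84 (SE 0.118, adjusted p = 2.95e-05), or 1.78-fold. The first of these calls was lost when any 1 of 7 libraries was left out (adjusted p = 0.0516 to 0.0751, edgeR), namely female GD45 replicate 12 or 18, female GD60 replicate 3 or 5, male GD45 replicate 11, and male GD60 replicate 6 or 16. It was also lost on litter sums (adjusted p = 0.0680), with no filter on low counts (adjusted p = 0.0606) and in the exon table (adjusted p = 0.1101). The exon table held only 36.8% of the reads counted on the gene DLX6. The ratio of DLX5 to DLX6 per length was 5.80 ± 0.852 at GD60 and 3.44 ± 1.00 at GD90 (SD, n = 6 each), a log2 shift of -0.79 (exact permutation p = 0.00649, adjusted p = 0.0130), with the highest brain of GD90 at 5.34 inside the range of GD60.

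SP8 (ENSSSCG00000031078, chr9:89764764-89767425, minus strand) varied widely between brains of GD45, with 4.57 ± 2.11 CPM (SD, n = 6). It measured 3.11, 5.22 and 5.70 CPM in female and 5.64, 6.71 and 1.01 CPM in male brains of GD45. At GD60 it measured 4.85, 4.64 and 2.66 CPM in females and 5.48, 2.51 and 3.84 in males, and at GD90 1.62, 2.32 and 2.05 in females and 2.41, 1.85 and 1.38 in males. All brains of GD90 were below those of GD60, yet the value of male GD45 replicate 17, 13 counts, was below all of GD90. SP8 fell 2.06-fold from GD60 to GD90 (log2 fold change -1.04, SE 0.349, adjusted p = 0.0236, edgeR). This call was lost without female GD60 replicate 3, female GD90 replicate 2, male GD60 replicate 4 or male GD90 replicate 10 (adjusted p = 0.0501 to 0.0643). Without male GD45 replicate 17 SP8 passed in females (adjusted p = 0.0272) and in males (adjusted p = 0.0174). That library is no part of GD90 against GD60 and acts on it only through the shared fit.

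The same library also held the lowest DLX2 level of GD45, 15.8 CPM where the 5 other brains had 24.5 to 34.2, and the highest DLX1 level, 113 CPM. The latter rests on its TMM factor. Scaled by total counts alone, its DLX1 level was 95.7 CPM, inside the 90.3 to 106 of the 5 other brains. Its DLX2 level was still the lowest on that scale, 13.4 CPM against 26.3 to 35.6. In it the companion regulators of ventral forebrain described below summed to 1778 CPM against 2382 to 2866 in the other brains of GD45, and erythroid genes to 794 CPM against 249 to 364. Choroid plexus genes summed to 1806 CPM in it against 916 to 1372. Without this library the log2 fold change from GD45 to GD60 was -0.27 for DLX2 and -0.44 for SP8, where with it they were -0.12 and -0.20, and neither passed (adjusted p = 0.0866 and 0.217, edgeR). The part of the listed genes in the low SP8 and DLX2 values was not tested.

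**Figure D3:**
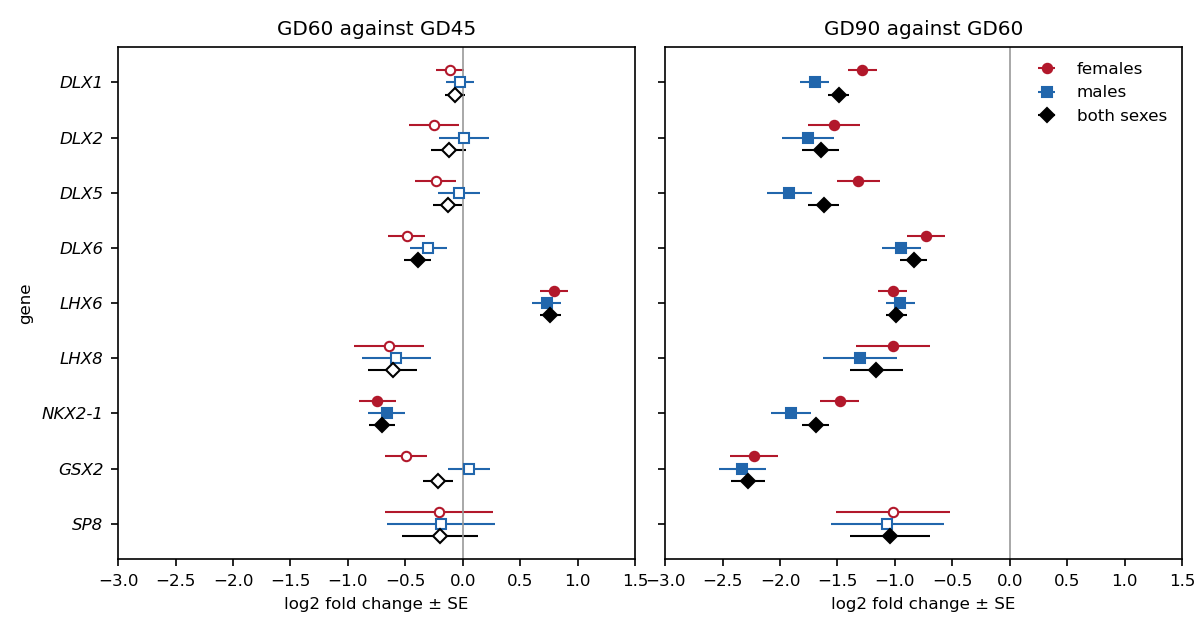
Log2 fold change with its standard error (horizontal axis) of each gene for GD60 against GD45 and for GD90 against GD60 in females, males and both sexes together, with filled symbols for an adjusted p under 0.05. In the first period LHX6 alone is above 0 with a filled symbol (0.76 with both sexes together), and in the second every symbol is below 0.

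Female and male brains were compared on each day, since the study asked how fetal sex relates to brain gene expression. At GD45, GD60 and GD90 0 of 9 genes passed (edgeR, 0.0919%, 0.098% and 0.098% of all genes tested), and DESeq2 and the likelihood ratio test of edgeR also called 0 of 9. The 16 genes called at GD90 became 28 with female GD90 replicate 7 left out, and 1062 when only the 6 libraries of that day were fitted, with 0 of the 9 in either. The log2 differences, male minus female, ran from -0.32 to 0.23 at GD45, from -0.03 to 0.29 at GD60 and from -0.55 to 0.17 at GD90. At an unadjusted p under 0.05 there were 0, 0 and 2 of the 9 genes on these days, where 2.59%, 4.8% and 13.6% of all genes tested had such a p. The 2 were DLX5, with 11.9, 7.89 and 9.59 CPM in females and 7.99, 5.85 and 6.24 in males at GD90 (log2 difference -0.55, SE 0.193, adjusted p = 0.350, edgeR), and NKX2-1, whose 3 male brains of GD90 were below the 3 female brains (log2 difference -0.44, SE 0.177, adjusted p = 0.350). At GD60 GSX2 was higher in all 3 male than in all 3 female brains, as 5.86% of all genes tested were. Groups that did not overlap were found for 3 of 9 genes at GD90, DLX1 and NKX2-1 lower and LHX6 higher in males, on a day when 18% and 17.8% of all genes tested did the same.

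The change between days was also tested for a difference between the sexes. For GD45 to GD60 0 of 9 genes passed, and 0 had an unadjusted p under 0.05. For GD60 to GD90 0 of 9 passed and 2 had an unadjusted p under 0.05, DLX1 (log2 fold change of -1.28 in females and -1.70 in males, adjusted p of the difference = 0.232, edgeR) and DLX5 (-1.32 and -1.92, adjusted p = 0.237). In both of these interaction tests 0% of all genes tested passed with edgeR's quasi-likelihood test, although 2.04% and 19.8% had an unadjusted p under 0.05. The 0 genes called in the second became 2209 when male GD45 replicate 17 was left out, 86 for female GD60 replicate 15, 28 for female GD90 replicate 7, 2 for male GD45 replicate 11 and 1 for male GD45 replicate 14, with 0 of the 9 among them. Libraries of GD45 are no part of this interaction and act on it only through the filter, scaling and spread of the shared fit. The part of the wide spread of male GD45 in these counts was not tested. DESeq2 and the likelihood ratio test of edgeR called 268 and 129 of all genes in the second, and 0 of the 9. The standard errors of these differences ran from 0.173 for DLX1 to 0.694 for SP8 on the log2 scale.

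The promoters are shown for 4 of the 9 genes, the pair of medial eminence genes that moved in opposite directions (NKX2-1 and LHX6), the gene that fell most (GSX2) and a DLX gene whose change to GD60 did not pass and which then fell (DLX2). Each sequence runs from 250 bases before to 50 bases after the start of the gene in RefSeq on Sscrofa11.1, read 5′ to 3′ on the strand of the gene. Capitals mark matches, on either strand, to TAATTA or TAATTG, cores bound by many homeodomain proteins, and to GGGCGG, the core of the GC box bound by SP family factors.
DLX2, chr15:78204215-78204514, minus strand: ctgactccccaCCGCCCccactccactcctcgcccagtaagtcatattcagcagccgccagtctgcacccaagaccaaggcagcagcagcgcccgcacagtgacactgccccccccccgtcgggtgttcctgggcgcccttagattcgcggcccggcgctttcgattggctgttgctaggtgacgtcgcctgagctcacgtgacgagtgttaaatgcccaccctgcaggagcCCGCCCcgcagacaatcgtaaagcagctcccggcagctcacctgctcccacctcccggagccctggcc
LHX6, chr1:262322728-262323027, minus strand: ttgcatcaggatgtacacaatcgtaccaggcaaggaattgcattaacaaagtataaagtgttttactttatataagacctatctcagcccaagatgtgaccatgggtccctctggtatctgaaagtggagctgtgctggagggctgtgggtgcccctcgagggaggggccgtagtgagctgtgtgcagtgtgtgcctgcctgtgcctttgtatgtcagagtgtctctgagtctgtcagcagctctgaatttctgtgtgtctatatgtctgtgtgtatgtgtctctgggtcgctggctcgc
NKX2-1, chr7:63486950-63487249, plus strand: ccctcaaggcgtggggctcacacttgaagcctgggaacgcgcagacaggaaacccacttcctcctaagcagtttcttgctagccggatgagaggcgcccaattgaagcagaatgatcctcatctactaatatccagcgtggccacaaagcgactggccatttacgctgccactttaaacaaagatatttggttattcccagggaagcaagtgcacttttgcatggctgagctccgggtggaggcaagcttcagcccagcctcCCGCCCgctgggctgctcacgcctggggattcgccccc
GSX2, chr8:40879843-40880142, plus strand: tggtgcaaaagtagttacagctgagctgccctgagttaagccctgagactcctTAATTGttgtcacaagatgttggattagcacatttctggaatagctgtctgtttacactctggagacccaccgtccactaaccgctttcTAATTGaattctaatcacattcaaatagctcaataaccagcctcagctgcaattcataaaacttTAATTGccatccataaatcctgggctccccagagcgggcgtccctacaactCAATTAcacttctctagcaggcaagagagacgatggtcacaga

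The core TAATTG was found 4 times in the GSX2 window and 1 time in that of DLX5, and in 0 of the 7 others, where 6.73% of 19531 windows of protein-coding genes held it. GSX2 was the 1 window among the 19531 with at least 4 matches, a limit set after its count was seen. TAATTA was found in 0 of 9 windows and in 4.11% of all, and GGGCGG in 4 of 9, DLX1, DLX2, NKX2-1 and SP8, and in 50.6% of all. The 9 windows held a median of 22 CpG dinucleotides where all windows held a median of 16, from 30 in SP8 and 23 in DLX6 down to 5 in GSX2, 5 in LHX6 and 4 in LHX8. The start in RefSeq minus that in the Ensembl annotation of the counts, along the gene, ran from -1658 bases for GSX2 to 877 for DLX1, so these windows describe annotated starts. A match is a stretch of letters and was not tested as a binding site.

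LHX6 took a growing share of the summed level per length of the 9 genes, from 11.0% at GD45 to 19.3% at GD60 and 26.3% at GD90. Its share was between 9.72% and 12.9% in the brains of GD45 and between 22.04% and 31.2% in those of GD90. NKX2-1 went from 9.45% to 6.02% and 4.99%, and GSX2 from 6.03% to 5.35% and 2.92%. DLX1 had 23.8%, 23.4% and 22.4%. At GD90 LHX6 had a level of 9.35 ± 0.744 FPKM and DLX1 of 7.99 ± 0.732 FPKM (SD, n = 6), and the lowest LHX6 value of 8.60 FPKM was above the highest DLX1 value of 8.56 FPKM. DLX1 in turn did not overlap with DLX2, at 5.75 to 6.83 FPKM, while DLX2 overlapped with DLX5, at 4.12 to 8.40 FPKM.

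**Figure D4:**
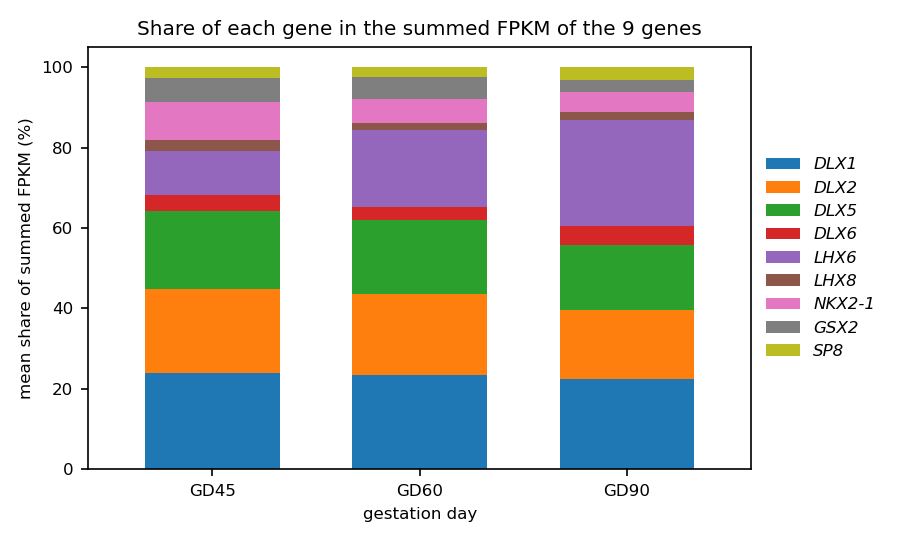
Mean share (percent, vertical axis) of each gene in the summed level per length (FPKM) of the 9 genes by gestation day, over 6 brains each. The share of LHX6 is 11.0% at GD45 and 26.3% at GD90, while that of NKX2-1 goes from 9.45% to 4.99%.

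Other genes of the same programme were taken from lists of textbook genes and counted without a set test. Of 34 tested companion regulators of ventral forebrain progenitors and interneurons, 16 fell and 5 rose from GD60 to GD90 with both sexes together, and 13 did not pass (edgeR). Among all genes tested 42.4% passed in that period, 20.9% downward. Their median log2 fold change was -0.51, against -1.49 for the 9 genes and -0.01 for all genes tested. The lowest were VAX1, a homeobox gene of the ventral forebrain (-1.69, adjusted p = 0.000142), and SP9, a relative of SP8 that acts with it in striatal and interneuron precursors (-1.60, adjusted p = 3.95e-08). The highest were NKX6-2 (3.47, adjusted p = 6.08e-05), which is also used by oligodendrocytes, and OLIG2 (0.92, adjusted p = 0.000134), the oligodendrocyte lineage factor. NKX6-2 was counted at under 0.43 CPM in every brain of GD45 and GD60. From GD45 to GD60 5 of the 34 rose and 8 fell, with a median of -0.19, where 9.35% of all genes tested rose and 7.37% fell.

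Genes that GABA neurons use for their function were counted in the same way. Of 19 tested genes of GABA synthesis, GABA transport and interneuron subtypes, 11 rose, 1 fell and 7 did not pass from GD60 to GD90, with a median log2 fold change of 0.47. The share of all genes tested that passed was 42.4%, with 20.9% downward. PVALB, the calcium buffer of fast-spiking interneurons, went from 0.508 to 6.32 CPM on average (log2 fold change 3.65, adjusted p = 3.85e-05, edgeR). LAMP5, a marker of neurogliaform interneurons that projection neurons also express, went from 7.46 to 92.1 CPM (log2 fold change 3.62, adjusted p = 1.19e-06). TAC3, the neurokinin B precursor, was the gene that fell (-0.60, adjusted p = 0.0132), and the neuropeptide gene CORT did not pass (-0.46, adjusted p = 0.149). The summed level of the 19 genes was 954 to 1112 CPM at GD60 and 1698 to 2029 CPM at GD90, while the 9 specification genes went from 256 to 355 down to 119 to 126 CPM. In the earlier period 3 of the 19 rose and 0 fell (9.35% and 7.37% of all genes tested), with VIP (1.79, adjusted p = 0.000890) and NOS1 (1.21, adjusted p = 0.0374) the highest.

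Genes of other cell types were counted beside the 9, in a period when 42.4% of all genes tested passed, 20.9% downward. Of 7 tested oligodendrocyte genes 7 rose from GD60 to GD90 (median log2 fold change 5.63), and their summed level went from 116 to 142 CPM up to 1948 to 3292 CPM. Of 5 tested astrocyte genes 5 rose (median 2.36), from 310 to 442 up to 1488 to 1934 CPM, and 6 of 7 microglia genes rose (median 0.62). Of 9 tested proliferation genes 9 fell, from 238 to 291 down to 132 to 181 CPM, and they had already fallen from 551 to 659 CPM at GD45. Erythroid genes fell in 4 of 7 cases and choroid plexus genes in 3 of 5, endothelial genes rose in 2 of 6, and 1 of 8 hindbrain and spinal cord genes fell. Of 7 tested pan-neuronal genes 4 rose, 1 fell and 2 did not pass (median 0.71). They summed to 7506 to 10020 CPM at GD60 and 8659 to 10670 CPM at GD90. TUBB3 and STMN2 made up most of this sum, with means of 4479 and 2711 CPM at GD60 and 3466 and 3019 CPM at GD90, so it says little about the others. The part of these shifts in the fall of the 9 genes was not tested.

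**Figure D5:**
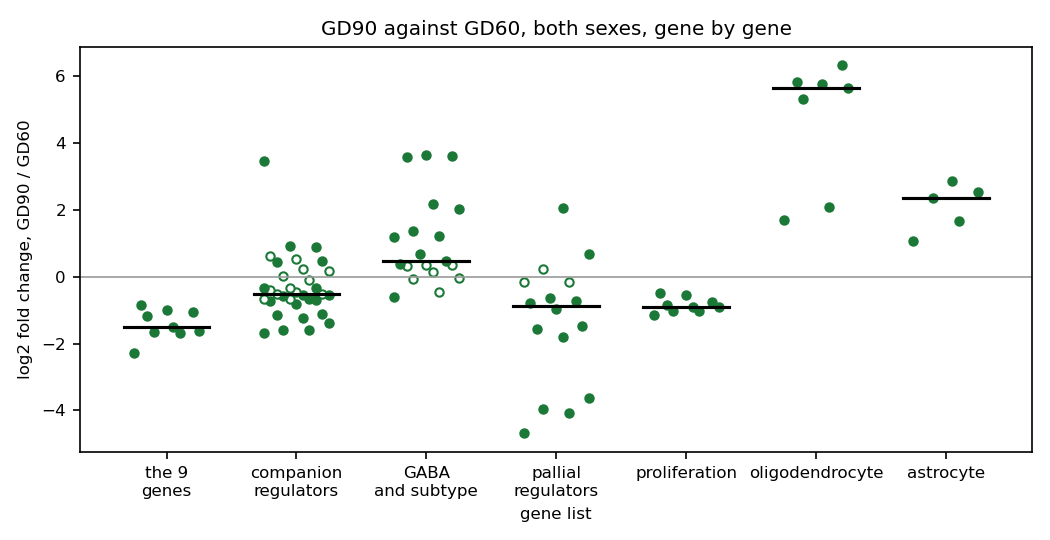
Log2 fold change from GD60 to GD90, both sexes together (vertical axis), of each tested gene in 7 lists, with filled points for an adjusted p under 0.05 and the median of each list as a black line. The 9 genes lie between -2.28 and -0.84, the median of the GABA and subtype genes is 0.47 and that of the oligodendrocyte genes 5.63.

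Genes of other tissues that use these factors were also counted, against the same 42.4% of all genes tested (20.9% downward) from GD60 to GD90. The distal-less genes of craniofacial and other tissues, DLX3 and DLX4, were counted at no more than 0.133 and 0.956 CPM in any brain. Genes of craniofacial mesenchyme, cartilage and bone summed to 24.3 to 42.1 CPM over all brains, and from GD60 to GD90 3 of 9 tested rose and 1 fell, with ACAN (1.43) and SP7 (1.36) the highest and ALX4 (-1.18) and IBSP (-0.50, adjusted p = 0.418, edgeR) the lowest. Genes of hypothalamus and cholinergic neurons summed to 140 to 449 CPM at GD45, 186 to 306 at GD60 and 126 to 150 at GD90. Thyroid and lung genes summed to 1.28 to 6.96 CPM, with SFTPB at 0 counts in 18 of 18 libraries, which allows 3 counts in each. The summed level of the thyroid and lung genes was higher at GD90 (median 5.53 CPM) than at GD45 (median 2.12 CPM), whereas NKX2-1 was lower. The part of these tissues in the levels of the 9 genes was not tested.

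Over the 18 libraries, which share the days, Pearson's r of log2 CPM between pairs of the 9 genes ran from 0.361 (DLX6 with LHX6) to 0.967 (DLX1 with GSX2), with a median of 0.865 over 36 pairs. LHX6 had r of 0.361, 0.378 and 0.387 with DLX6, LHX8 and NKX2-1. Of the deviations from the means of the 6 groups of sex and day, r ran from -0.427 (GSX2 with SP8) to 0.784 (DLX2 with SP8), with a median of 0.069. The r of DLX2 with SP8 was 0.580 without male GD45 replicate 17. After it DLX5 with NKX2-1 had the highest r of these deviations, 0.603, and 0.595 without that library.

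Among 12794 other named genes with a mean of at least 1 CPM, the gene most like DLX2 over the 18 libraries was SP9 (Pearson's r of log2 CPM 0.981), also a regulator of ventral forebrain. NCK2 (0.972) and RCAN3 (0.971) came next for DLX2. Those most like DLX1 were FBLIM1 (0.989), NEUROD2 (0.980) and NEUROD6 (0.980), and the last of these are factors of cortical projection neurons. NKX2-1 was nearest to ZCCHC3 (0.993), MACROH2A2 (0.986) and PTMA (0.985), and GSX2 to IGSF9 (0.983), NFIL3 (0.980) and ADAMTS7 (0.979). The nearest genes to DLX5 were ATAT1 (0.972), NFIL3 (0.969) and TRIM13 (0.967), and those to DLX6 HNRNPA1 (0.971), RHOF (0.969) and HNRNPH1 (0.967). LHX6, with its peak at GD60, was nearest to FAM124A (0.942), TRIM67 (0.912) and VWCE (0.910). LHX8 was nearest to GABPB1 (0.937), EIF4B (0.937) and USP3 (0.932), and SP8 to BRD2 (0.925), SH3BP5 (0.919) and RRN3 (0.918). These values describe a shared course over 3 days and carry no test.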

How the data were processed

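Poly(A)-enriched RNA of 18 fetal brains was sequenced in paired-end mode. The authors ran FastQC and Trimmomatic, mapped with HISAT2 to Sscrofa11.1, assigned reads to Ensembl genes with featureCounts, and deposited raw counts per gene, exon and transcript without normalization. Options for strand and shared reads are not given in the sources used here, so reads of overlapping genes, such as METAP1D (19.9 CPM) and DLX1, may not be separable. Transcript counts were not used here. Of 22 columns of counts, 4 libraries had 2 runs each, which were summed. Gene lengths from the table gave FPKM.

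Counts were fitted with edgeR 4.0.16 in R 4.3.3 (filterByExpr, 16325 genes with 99.9% of counts, TMM, 1 quasi-likelihood model of 6 groups over 18 libraries, Benjamini-Hochberg adjustment, threshold 0.05). The study's methods name a paired-sample edgeR analysis without saying what was paired, and the fit here had no pairing. Both sexes together means the average of the female and male changes. Log2 CPM used a prior count of 2. Ratios, added after the levels were seen, were tested by two-sided exact permutation (scipy 1.17.1). The steps were tested on simulated data. Alternatives were the likelihood ratio test, DESeq2 1.42.0, limma 3.58.1 voom with litter, no TMM, other filters, exon sums, a length correction, fewer groups, litter sums or blocks, and each library left out. Promoter windows came from RefSeq. The 9 genes, the lists and the tests were chosen with earlier results of these data known. List genes were named as the 2 lowest and 2 highest log2 fold changes among those tested, and similar genes as the 3 with the highest r. DLX3, DLX4 and SFTPB were named for their levels, after these were seen.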

Additional observations from a re-analysis of the deposited data

Results flagged for a closer look

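In 3 of 27 sets of 6 brains (9 genes on 3 days), 1 brain stood farther from the others than Dixon's 95% critical value allows, and chance gives about 1 such set in 20. DLX6 at GD90 was 8.73 CPM in female GD90 replicate 9, with the next brain at 6.87 CPM. LHX6 at GD45 was 83.2 CPM in male GD45 replicate 14, with the next at 66.1 CPM, and LHX6 at GD60 was 140 CPM in male GD60 replicate 16, with the next at 115 CPM.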

How the results depend on the processing

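Over the 30 alternatives, 2747 of 2790 values of a gene in a comparison kept their side of the threshold, and 0 genes called in any of them changed direction. The fall from GD60 to GD90 with both sexes together was called for 8 or 9 of 9 genes under every alternative, and SP8 was the gene lost (litter as a random replicate block in limma voom, adjusted p = 0.0800). For GD60 against GD45 in males, where 2 of 9 genes were called, 1 was called with no filter on low counts, 1 with the exon table summed per gene and 0 with only the libraries of the groups compared. Leaving out 1 library gave 1 to 3 called genes for GD60 against GD45 in females, 1 to 2 in males and 2 to 4 with both sexes together. It gave 7 to 9 for GD90 against GD60 in females, 8 to 9 in males and 8 to 9 with both sexes together, and 0 for every sex comparison and interaction. Of all genes tested, these fits called 531 to 2329 in females, 476 to 1550 in males and 2066 to 3375 with both sexes together from GD45 to GD60. From GD60 to GD90 they called 3175 to 5967, 3828 to 7368 and 6154 to 8232 in the same order. They called 12 to 28 in the sex comparisons and 0 to 2209 in the interactions. LHX8 in females from GD60 to GD90 lost its call without female GD60 replicate 15, female GD60 replicate 5 or female GD90 replicate 9 (adjusted p = 0.0636 to 0.126, edgeR). In the exon table LHX6 held 12.9% of its gene counts, and it did not pass in males there (adjusted p = 0.188 to GD60 and 0.211 to GD90). The causes of these losses were not tested.

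With litter as a replicate block the counts of called genes were 2 in females and 2 in males from GD45 to GD60, 8 and 8 from GD60 to GD90, and with both sexes together 4 and 8. Litter sums gave 2 and 9, DLX6 being the gene lost, and litter as a fixed replicate block gave 0 for each sex comparison and interaction. Without male GD45 replicate 17 the 8 ratio tests kept their side of the threshold. The deviations of littermates from their group means correlated at -0.093 to 0.424 over genes, with a consensus of 0.104. Without TMM factors the median of all genes in the interaction from GD60 to GD90 moved from 0.02 to 0.12. Leaving out both fetuses of the litter of male GD45 replicate 17, chosen after seeing the data, put SP8 past the threshold from GD60 to GD90 in females and males (adjusted p = 0.0260 and 0.0154, edgeR). Those GD45 libraries act on that comparison only through the shared fit. With 12 to 18 counts of GSX2 and 13 to 35 of LHX8 per library at GD90, small differences between such libraries were not detectable.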

Other observations

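The list of the pallium, the part of the forebrain that makes projection neurons, held regulators and the vesicular glutamate transporters SLC17A7 and SLC17A6. Of 16 tested, 10 fell and 1 rose from GD45 to GD60 with both sexes together, and 11 fell and 2 rose from GD60 to GD90 (edgeR), with medians of -0.79 and -0.87 on the log2 scale where the 9 interneuron genes had -0.20 and -1.49. The proneural genes NEUROG1, at 5.80 to 11.7 CPM at GD45 and 0.519 to 1.60 CPM at GD60, and NEUROD4, at 19.0 to 28.6 and 5.22 to 9.22 CPM, were the lowest in the first period (log2 fold changes -3.11 and -1.87, adjusted p = 1.49e-05 and 4.98e-06). The genes that rose were the transporters, SLC17A7 in both periods (0.45 and 2.05, adjusted p = 0.00345 and 2.35e-10) and SLC17A6 in the second (0.68, adjusted p = 0.00341), and 0 of the regulators rose. Shares of all genes tested were 9.35% upward and 7.37% downward in the first period, and 42.4% in either direction and 20.9% downward in the second. Whether the courses of the 2 lists differ was not tested.

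Among 10 tested genes of hypothalamus and cholinergic neurons, the other users of NKX2-1 and LHX8, 3 fell and 0 rose from GD45 to GD60, and 3 fell and 3 rose from GD60 to GD90. Downward calls made up 7.37% and 20.9% of all genes tested in these periods, and calls in either direction 16.7% and 42.4%. CHAT, the acetylcholine synthesis enzyme, and SLC5A7, the choline transporter, rose in the later period (log2 fold changes 2.29 and 1.25, adjusted p = 0.00175 and 0.0182, edgeR), when LHX8 fell 2.24-fold (adjusted p = 0.000620). GBX1 and GBX2 fell in it (-1.44 and -1.43, adjusted p = 7.35e-05 and 0.000156). CHAT was counted at no more than 0.346 CPM in any brain of GD45 or GD60 and at 0.2996 to 1.77 CPM at GD90.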
